A study of Macaca mulatta with 38 samples.

Results

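The CD34+ cell library of day 553 was set against the 5 libraries of mature blood cells from the same animal and day, to ask which barcodes the circulating CD34+ cells carried and how far each mature lineage held the same ones. The members are all barcodes with a count in that CD34+ library, labelled CD34p. There were 12 of them among the 44423 barcode sequences of the series. The libraries compared are CD34p, Gr (granulocytes), Mono (monocytes), nRBC (nucleated red cells), T and B, 1 each, out of 38 libraries of the series, and the labels give peripheral blood as the source of all of them, CD34p included. All come from ZL34, a male rhesus macaque of 4 years, whose own CD34+ cells were mobilised with G-CSF and AMD1300, transduced at an MOI (the ratio of infectious particles to cells) of 25 with a library of barcoded lentivirus, and returned to it after TBI. The animal then received cidofovir at 5 mg/kg each week, so every library shares these treatments. The DNA of barcodes carries no cell type markers, and no source used here states the purity of the sorts, so the cell types rest on the labels alone.

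CD34 is a surface protein of blood stem and progenitor cells, the cells from which granulocytes, monocytes, red cells and lymphocytes descend. The lentivirus writes its tag into the genome of a cell, and every descendant inherits it. A barcode shared by CD34+ cells and a mature lineage can therefore mark a common ancestor. Granulocytes, monocytes and red cell precursors are short-lived and depend on steady supply from progenitors, whereas T and B cells can persist and divide in the periphery. A cell that took up several vector copies carries several barcodes, which then move together. Barcodes therefore need not be independent clones, and cells cannot be counted from them.

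The 12 sequences are shown because they are the whole of what was listed in CD34p, together with the most abundant barcode of T (bc8) and of B (bc85) that CD34p did not list. Barcodes are numbered by mean read share over the 38 libraries. Each is printed 5′ to 3′ as the deposited table has it, up to the sequencing adapter, with the leading tag in lower case and the variable part in capitals.
bc1: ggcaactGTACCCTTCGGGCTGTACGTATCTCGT
bc2: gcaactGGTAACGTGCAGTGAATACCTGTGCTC
bc3: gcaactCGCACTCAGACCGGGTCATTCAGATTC
bc5: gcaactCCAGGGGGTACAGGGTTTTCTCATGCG
bc4: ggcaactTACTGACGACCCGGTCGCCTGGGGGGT
bc6: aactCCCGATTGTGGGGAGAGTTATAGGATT
bc11: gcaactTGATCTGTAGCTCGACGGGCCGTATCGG
bc2273: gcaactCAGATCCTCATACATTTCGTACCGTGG
bc18: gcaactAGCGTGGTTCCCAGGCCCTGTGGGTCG
bc9: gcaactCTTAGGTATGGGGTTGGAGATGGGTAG
bc7: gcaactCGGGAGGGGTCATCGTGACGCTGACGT
bc15: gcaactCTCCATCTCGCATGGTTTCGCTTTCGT
bc8: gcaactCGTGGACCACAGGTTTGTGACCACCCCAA
bc85: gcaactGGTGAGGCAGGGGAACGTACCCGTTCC

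The members were unrelated in sequence. Any pair of the 12 differed at 13 to 24 of the first 27 bases of the variable part, and the nearest other sequence of the table lay 9 mismatches away over 50 bases. The 50 bases were compared position by position without alignment, so a copy with a shifted start would count as distant. The variable part was 27 bases long in 11 of the 12 and 28 bases in bc11. Its GC content ran from 48.1% to 70.4% among the members, with a median of 55.6%, against a median of 51.9% over the 35591 sequences of the table with a variable part of 27 bases. The start of the read differed among the most abundant members. bc1 and bc4 began with GGCAAC, as did 671 sequences of the table (1.51%), and bc6 began with AACTCC, as did 3 (0.00675%). The other 9 members began with GCAACT, as did 43749 sequences (98.5%).

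Reads of listed barcodes ran from 3365960 in B to 3804184 in Gr among the 6 libraries. The smallest count above 0 anywhere in the table was 101, so a listed 0 was taken as 100 reads or fewer, which is 0.00263% to 0.00297% of reads in these libraries. That limit is inferred from the values, and every bound given here rests on it. There is 1 library per cell type, from 1 animal, so no difference between libraries has a replicate check and no test was run. Intervals are exact Clopper-Pearson intervals at 95% for shares and exact Poisson intervals for counts, and both cover counting error alone, because reads of a PCR product with no molecular identifiers may repeat the same molecule.

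CD34p was made of 6 leading barcodes, 1 lesser barcode and 5 traces. bc1 to bc6 each held at least 1% of its reads and together 99.85% (99.846 to 99.854%). bc11 held 0.133%, and the other 5, each under 1000 reads, held 0.0164% in sum. Diversity, as the effective number of barcodes (Shannon entropy of the shares, exponentiated), was 6.02 in CD34p, 6.01 in Gr, 6.03 in Mono and 6.03 in nRBC. It was 129 in T and 700 in B, where many rarer barcodes shared the reads.

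Gr, Mono and nRBC held nearly nothing that CD34p lacked, while T and B took a large part of their reads from barcodes that CD34p did not list. Barcodes of CD34p made up 99.96% of Gr reads, 99.99% of Mono reads and 99.99% of nRBC reads. They made up 55.5% of T reads (55.4 to 55.5%) and 41.4% of B reads (41.4 to 41.5%). The lymphoid libraries thus stood apart from the other 4. Leaving out barcodes under 0.05% of a library, the share of the reads that remained, not of all reads, was 74.6% in T and 97.7% in B. The figure for B thus turns on whether its rare barcodes are counted.

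By list, 11 of the 12 were also found in Gr, 11 in Mono, 9 in nRBC, 12 in T and 11 in B. They were 61.1% of the 18 barcodes listed in Gr, 84.6% of the 13 in Mono and 81.8% of the 11 in nRBC. In T they were 0.382% of 3142 barcodes, and in B 0.139% of 7935. The similarity r to CD34p, Pearson's correlation over all barcodes of the square root of the share, was 0.999 for Gr, 1.000 for Mono and 1.000 for nRBC, against 0.706 for T and 0.674 for B. Barcodes are not independent replicates in this measure, and the same few leading ones set it, so it is a description only.

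The 6 leading barcodes kept nearly their CD34p levels in Gr, Mono and nRBC. bc1 held 19.5% of reads in CD34p, 20.8% in Gr, 18.6% in Mono, 19.2% in nRBC, 9.41% in T and 7.73% in B. For bc2 the shares were 17.8%, 19.2%, 18.1%, 18.1%, 10.3% and 6.95% in the same order. Both were high in the 4 libraries outside the lymphoid lineages and lower in T and B, with no overlap between these sets. bc3 stood at 17.6% in CD34p, 16.6% in Gr, 17.5% in Mono, 17.3% in nRBC, 9.54% in T and 7.01% in B. bc4 stood at 15.2%, 15.4%, 15.7%, 15.1%, 8.68% and 7.04%. The order of T above B held for these 4 barcodes and was turned in the remaining pair. bc5 held 15.4% in CD34p, 14.0% in Gr, 14.8% in Mono, 14.8% in nRBC, 5.16% in T and 6.23% in B. bc6 held 14.3%, 13.8%, 15.1%, 15.4%, 5.78% and 6.40%.

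Against CD34p, none of the 12 members was past 2-fold in Mono or nRBC in either direction (background 0% of 14 barcodes listed in either library, in each). In Gr 0 were lower (background 0% of 19), and 2 of the 12, bc7 and bc15, were higher by over 2-fold (background 31.6% of 19), both at trace level. At these counts a member listed at 0 (bc2273 in Gr, Mono and nRBC, and bc18 and bc15 in nRBC) could not be counted as lower, since its bound is 0.70 to 0.94 times the CD34p share, and its true share may lie anywhere below that. In T 4 of 12 were higher (background 66.3% of 3142), namely bc18, bc9, bc7 and bc15, and 4 were lower (background 0.127%), namely bc1, bc5, bc6 and bc11. In B 7 of 12 were lower (background 0.0882% of 7936), the 6 leading barcodes and bc11, and 2 were higher (background 41.6%), bc18 and bc7. The members were the only barcodes counted as lower in T or in B, since a barcode listed at 0 in CD34p cannot be shown lower elsewhere. As shares of the reads of the 12 members alone, none of these 7 differed from CD34p by over 2-fold in B (0.81 to 1.12 times), and 4 traces were higher, bc7 5.12-fold, bc18 4.86-fold, bc15 4.68-fold and bc2273 3.65-fold. In T, on the same measure, 6 members were past 2-fold, and bc1, bc5 and bc6 were no longer among them. bc1 was 17.0% of the members' reads in T and 19.5% in CD34p, bc5 9.31% and 15.4%, and bc6 10.4% and 14.3%. bc11 stayed lower in T, at 0.0646% against 0.133%.

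Proportions among the 6 leading barcodes were compared after dividing by their sum, which removes the difference in their total. B, with 41.4% of its reads in them, had nearly the CD34p proportions. Its largest departure from CD34p was 0.16 on the log2 scale, in bc4, against 0.08 in Mono (bc6), 0.10 in nRBC (bc6) and −0.14 in Gr (bc5). T departed most of the 5. bc5 was 10.6% of the 6 in T and 15.5% in CD34p, a log2 ratio of −0.55, and bc6 was 11.8% against 14.3%, a log2 ratio of −0.28. bc2 was 21.1% of the 6 in T against 17.8%, a log2 ratio of 0.25.

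As a yardstick for spread between libraries, the same proportions were taken in the 9 libraries of earlier days in which the 6 held at least 90% of reads (Gr, Mono, nRBC and EOS, the last labelled only by that name). In those, the log2 ratio of bc5 to CD34p had a mean of −0.07 ± 0.12 (SD, n = 9 libraries) and ran from −0.27 to 0.17, so the T value of day 553 lay outside that range. For bc6 the ratio was −0.02 ± 0.34 and ran from −0.73 to 0.34, which takes in the T value. Of the other leading barcodes, bc3 lay outside its range in T (0.15, against −0.24 to 0.03), and bc1, bc2 and bc4 lay within theirs. The 9 libraries are serial samples of 1 animal and of other cell types. Within T itself, the highest of the 6 was 2.003 times the lowest at day 553, and 1.46, 1.60, 1.48, 1.38 and 1.29 times at days 266, 365, 393, 494 and 536. At days 119 and 187, where the scarcest of the 6 had 1145 and 2276 reads in T, it was 3.17 and 2.22 times. In CD34p it was 1.36 times, and in B of day 553 1.24 times. T of day 553 thus had a wider ratio than T of days 266 to 536 and a narrower one than T of days 119 and 187.

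bc11, the next barcode of CD34p, stood in nearly the same ratio to the leading barcodes in Mono and nRBC as in CD34p, and in a lower one in T. It held 0.133% of reads in CD34p (0.130 to 0.137%), 0.151% in Gr, 0.130% in Mono, 0.135% in nRBC, 0.0358% in T and 0.0449% in B. As a percent of the reads of bc11 and the 6 together, it was 0.133% in CD34p, 0.151% in Gr, 0.130% in Mono, 0.135% in nRBC, 0.108% in B and 0.0732% in T. The intervals of CD34p (0.130 to 0.137%), Mono (0.126 to 0.133%) and nRBC (0.131 to 0.138%) overlapped. Those of Gr (0.147 to 0.155%), B (0.103 to 0.114%) and T (0.0692 to 0.0774%) did not overlap them, but with no second library the spread between libraries is unknown.

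Earlier, the same ratio of bc11 had been far higher, at different days in different lineages. bc11 was listed at 0 in T, B, Gr and Mono at days 32 and 119. In T of day 32 the 6 leading barcodes were listed at 0 as well, so no ratio could be taken. Elsewhere the 0 of bc11 allows a ratio up to 0.128% in Gr of day 119 and more in the others. At day 187 it was 10.2% in B, 7.75% in Mono and 2.38% in T, and listed at 0 in Gr, which allows up to 0.401%. At day 266 it was 7.55% in T, 9.34% in B and 7.60% in Mono, but 0.472% in Gr and 0.484% in nRBC. By day 365 it was 7.98% in Gr, 6.59% in Mono, 6.70% in T and 7.60% in B, and nRBC had 6.13% at day 309. The lineages thus stood near each other at day 365 and apart at day 266. At day 494 Gr still had 5.87%, T 4.56% and B 4.87%, while Mono had 0.0525%, nRBC 0.0463% and EOS 0.0726%. After 4.56% at day 494, T had 1.44% at day 536 and 0.0732% at day 553. At day 553 all 6 libraries were between 0.0732% and 0.151%, and Mono at day 494 and nRBC at days 393 and 494 had been below that range. EOS at day 494 (0.0699 to 0.0754%) lay at its lower end, within the interval of T at day 553 (0.0692 to 0.0774%).

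The 5 trace barcodes of CD34p sat just above the limit of listing. They were bc2273 with 141 reads (119 to 166), bc18 with 131 (110 to 155), bc9 with 123 (102 to 147), bc7 with 118 (97.7 to 141) and bc15 with 106 (86.8 to 128). The intervals of bc7 and bc15 take in 100 reads, so a repeat count of the same library could list them at 0. No barcode of CD34p lay between 141 and 5033 reads.

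Of these traces, 4 of 5 were abundant T barcodes. bc18 held 1.72% of T reads, bc9 1.62%, bc7 1.74% and bc15 1.42%, which is 495, 498, 558 and 505 times their CD34p shares. In Gr the shares were 0.00528%, 0.00460%, 0.00707% and 0.00568%. Mono had 0.00520%, 0.00354%, 0.00359% and 0.00293%. nRBC listed bc9 at 0.00354% and bc7 at 0.00317% and the other pair at 0, and B listed bc18, bc7 and bc15 at 0.00698%, 0.00663% and 0.00544% and bc9 at 0. In these libraries outside T, each of the 4 had 269 reads or fewer.

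Per 1000 T reads, CD34p had 2.20 reads of bc18, 2.19 of bc9, 1.95 of bc7 and 2.16 of bc15, values that the limit of listing bounds from below at 1.68, 1.78, 1.66 and 2.04. Ranked by T reads outside the 6 leading barcodes, bc7, bc18, bc9 and bc15 were ranks 2, 3, 4 and 7. Ranks 1, 5 and 6, bc8, bc10 and bc23, were listed at 0 in CD34p, where 100 reads would be 1.64, 1.80 and 2.02 per 1000 T reads. The traces in Gr were the top of the T list as well. The 11 barcodes that Gr listed beside the 6 and bc11 were the 11 highest in T outside the 6, from bc8 down to bc19, with 108 to 284 Gr reads each, or 2.18 to 10.4 per 1000 T reads. Of the 20 highest in T, 11 were listed in Gr, 5 in Mono, 4 in nRBC and 4 in CD34p, and the 9 below the 11th rank were listed in none of these 4. The part that T cells or T DNA in these libraries had in the traces was not tested, and such traces and a true low share in CD34+ cells cannot be told apart from these counts.

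These 4 barcodes had 2 kinds of record at earlier days. bc7 and bc9 had their highest shares, of 11.1% and 10.5%, in Gr at day 119, and held 8.26% and 7.92% in Mono on that day. In T they were highest at day 187, at 6.96% and 6.28%. bc15 and bc18 were highest in T at day 494, at 5.46% and 4.82%, and at most 0.0177% and 0.0179% in Mono, at day 365. Before day 365, bc15 and bc18 were listed at 0 in every Gr and Mono library.

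bc2273 was the only member that was not abundant anywhere. It had 141 reads in CD34p, 158 in T and 190 in B, and was listed at 0 in Gr, Mono and nRBC, each of which could hide a share up to 0.71 times that of CD34p. Across the series it was listed in 16 of 38 libraries, 5 of 9 of T, 5 of 8 of B, 3 of 7 of Gr, 2 of 7 of Mono and 0 of 5 of nRBC. Its highest share was 0.0214%, in T at day 393. Unlike the other 4 traces its T count was close to its CD34p count, and at 141 reads its presence in CD34p rests on few counts.

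T drew 44.5% of its reads from 3130 barcodes that CD34p did not list, and B 58.6% from 7924. The 5 highest of these in T were bc8 (1.76% of T reads), bc10 (1.61%), bc23 (1.43%), bc21 (1.26%) and bc13 (1.22%), at least 664, 607, 540, 477 and 462 times their CD34p shares. 43 of the 3130 held at least 0.1% of T reads, and 181 were enough for 50% of what the 3130 held. In B the load was spread more evenly. Its 5 highest were bc85 (0.105%), bc62 (0.0916%), bc82 (0.0685%), bc142 (0.0668%) and bc688 (0.0655%), at least 39.8, 34.6, 25.9, 25.2 and 24.7 times their CD34p shares. Only bc85 reached 0.1% of B reads, and 1918 barcodes were needed for 50%. None of these 5 was listed in Gr, Mono or nRBC of day 553, and bc85, bc62, bc82 and bc142 were listed in T, at 0.0408%, 0.0281%, 0.0147% and 0.00320%. Of all 7924, only 7 (0.0883%) were listed in Gr, Mono or nRBC of that day, and 1431 (18.1%) in T.

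Most of these barcodes had been seen before. The same holds for the series as a whole, where only 9635 of the 44423 barcodes were listed at day 553, the last day. No share over the whole series is set beside the counts of earlier listing, so they are a record only. Of the 3130 of T, 2951 (94.3%) were listed in an earlier library, 2434 in an earlier T library and 2227 in an earlier Gr, Mono, nRBC or EOS library. Of the 7924 of B, 7114 (89.8%) were listed earlier, 6592 in B and 5279 in Gr, Mono, nRBC or EOS. The 2227 held 38.4% of T reads and the 5279 held 44.8% of B reads. The 2434 with an earlier T listing held 40.6% of T reads, and the 6592 with an earlier B listing held 52.1% of B reads. These sets overlap, so an earlier listing in Gr, Mono, nRBC or EOS did not set barcodes apart. The 179 of T and 810 of B with no earlier listing held 0.975% and 3.85% of reads. T and B shared 1431 of these barcodes, 45.7% of the T list and 18.1% of the B list. Over all barcodes of day 553, members included, T and B shared 1442 (45.9% of T and 18.2% of B). That is the same list with the few members added, so its closeness was given in advance.

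Gr, Mono and nRBC had few barcodes of this kind. Gr listed 7, with bc13 (0.00747%), bc10 (0.00660%), bc8 (0.00560%), bc19 (0.00542%) and bc21 (0.00523%) highest, and 0.0376% of reads in sum. Mono listed bc10 (0.00320%) and bc2361 (0.00283%), and nRBC listed bc10 (0.00367%) and bc13 (0.00309%). bc2361 was the exception among them, since it was at 0 in T and at 0.0121% in B.

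How far CD34p could have shown the lymphoid barcodes depends on the measure. All 3130 of T and all 7924 of B held a larger share of their own library than the 0.00265% that a listed 0 allows in CD34p. But CD34p had only 5652 reads outside the 6 leading barcodes, against 1769959 in T and 1973944 in B, so that 100 reads were 1.77% of what was left. Counted outside the 6 in both libraries, a measure chosen after seeing the data, 10 T barcodes lay above that limit, and 4 of the 10 were listed in CD34p. For B it was 0, the highest being bc85 at 0.180%. This limit rests largely on bc11, which held 5033 of the 5652 reads. Without it 619 reads were left, 100 reads were 16.2% of them, and 0 T barcodes lay above the limit, the highest being bc8 at 3.45%. With bc11 counted, 6 T barcodes above the limit were not listed in CD34p, and bc11 itself had 1242 reads in T and 1511 in B. Without bc11, a share in CD34p like that in T would have been too low to list at this depth. For the B barcodes this held on both measures.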

How the data were processed

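Each library came from a PCR of 28 cycles on 200 ng of genomic DNA, per the labels' protocols. The values are counts of reads per barcode sequence in a single table deposited by the authors for all 38 libraries. No header states the unit, and whole numbers with unequal column sums led to it. No source used here names the sequencer, the counting program or the rules for merging and dropping sequences. Columns were matched to samples by title. Column sums of the 6 libraries ran from 3365960 to 3804184 reads, which count listed barcodes only.

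Shares are percent of the column sum. Members are all barcodes with a count in CD34p. Folds set each 0 to 100 reads. The variable part was read from after AACT to the adapter. Python 3.11.15, numpy 2.4.6, pandas 2.3.3 and scipy 1.17.1 were used, and the steps were tested on simulated data. Named barcodes were all of CD34p and, for each mature library, the 5 highest that CD34p did not list; bc19, bc2361 and ranks in T were named after their values were seen. Members, lists and rules were chosen with earlier results of these data known. Alternatives merged near sequences, thinned libraries to equal depth, or changed the start, filter, denominator or index. Integration sites were not analysed here.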

Additional observations from a re-analysis of the deposited data

How the results depend on the processing

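Of 125 values recomputed under 11 alternatives, 90 stayed within the counting interval, within 1.5 times for counts, within 0.212 on the log2 scale for proportions (the SD of the largest departure over the 9 earlier libraries) or within 0.05 for similarity, and 35 moved beyond it. Merging near sequences changed nothing, since no sequence lay within 2 mismatches of one 20 times as abundant. Its 32 values are among the 90 and could not have moved. Bases were compared position by position, so a copy with a shifted start or an inserted or lost base would not have been found. Setting each 0 to 100 reads left all 5 shares within their intervals. With listing at 1000 reads, CD34p had 7 barcodes, and Gr, Mono, nRBC, T and B listed 7 of 7 each. With only sequences starting with GCAACT, which drops bc1, bc4 and bc6, the share held by CD34p barcodes was 99.92% in Gr, 99.99% in Mono, 99.99% in nRBC, 41.8% in T and 25.9% in B. As a share of the reads kept without barcodes under 0.05% of a library it was 100% in Gr, Mono and nRBC, 74.6% in T and 97.7% in B. That filter left 84 T barcodes (18.9% of all T reads), 15 B barcodes (0.986% of all B reads) and 0 in Gr, Mono and nRBC (0%) that CD34p did not list, so it turned the order of T and B in each of these measures. Thinned to 3365960 reads, CD34p barcodes held 99.95% of Gr and 52.3% of T reads, the others 0.0476% and 47.7%, and 0 members were past 2-fold in Gr, because bc7 and bc15 dropped off the CD34p list, which kept 10. Over the reads of the members alone, 5 were past 2-fold in B, all traces, of which bc9 is at 0 there and passes only with its 0 set to 100 reads. The inverse Simpson index was 22.4 in T and 34.8 in B. The Bray-Curtis overlap with CD34p was 0.490 for T and 0.414 for B. Proportions within all 12 members, within the leading 6 (chosen after seeing the data) or against nRBC gave departures within the margin. In Gr, Mono, nRBC and B the departures were themselves smaller than the margin of 0.212, so only a rise could have moved them. No paired analysis was possible because each cell type and day has 1 library. Counts of 100 or fewer, absent from the table, limit what can be said of rare barcodes, in B most of all.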
